A study of Mus musculus with 3 samples.

Results

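The sites described here are places where 2 separate precipitations of Utf1 were listed with nearly the same summit. The members were chosen by peak position: a site is a pair made of a peak from biotin-tagged Utf1 and a peak from endogenous Utf1, on chromosomes 1 to 19, that overlap by at least 1 bp and whose summits lie no more than 250 bp apart. A summit is the position that a list gives as the top of a peak. There were 461 such pairs, called matching pairs below, among 1823 overlapping pairs on these chromosomes and 163114 listed peaks in the series. The other 1362 overlapping pairs are called offset pairs.

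Both precipitations came from KH2 cells, an established mouse embryonic stem cell line, cultured in serum medium (15%) with LIF on irradiated feeder fibroblasts. Each was a single library: biotin-tagged Utf1, for which the protocol describes streptavidin beads, and endogenous Utf1, for which it describes an antibody. The antibody label names the same Utf1 antibody for both. The labels do not say how the tag was introduced. A whole-cell extract of the same line completes the 3 samples, and its values were not analysed here. Feeder fibroblasts share the dish with the stem cells, and the lists do not separate the chromatin of these cell types.

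Utf1 stands for undifferentiated embryonic cell transcription factor 1. The protein sits on the chromatin of embryonic stem cells and is lost as they differentiate. Its own gene is a classic target of Oct4 and Sox2, and the protein is known to occupy many gene promoters, among them promoters that carry activating and repressive histone marks together. In a chromatin precipitation, a protein bound at a discrete place gives a pile of tags with its top near that place, so the distance between summits shows how closely both lists place a site.

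The biotin list held 152608 peaks with at least 22 tags each, and the endogenous list 10506 peaks with at least 13. Total library depth is unknown, because only tags inside peaks are listed. Positions are mm9, counted from 1, and tags, fold enrichment and width are the authors' values for each peak. Overlap and summits chose the members, so all values below describe them and none is a test. Intervals are 95% binomial (exact Clopper-Pearson) for shares, order-statistic for medians and exact Poisson for tags. They cover counting error alone, as the libraries were amplified by PCR and no molecular identifier is described. With 1 library per group no difference has a replicate check. Sites were not assigned to genes, since no mm9 annotation was used.

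Summit distances piled up close to 0, and a second and broader accumulation stood among the offset pairs. The matching pairs made up 25.3% (23.3 to 27.3) of the overlapping pairs. The bins of 50 bp on either side of the biotin summit held 69 and 81 pairs, against 30 to 46 in the 8 other bins inside the limit. The bins just beyond the limit held 38 pairs on each side, so the limit did not fall in a gap. Most matching pairs thus lay outside the central pile, at a level that continued past the limit. Farther out the counts went up again, with 66 pairs in the bin from −500 to −450 bp. On the other side the fullest bin, from 400 to 450 bp, held 60. Within the matching pairs the median distance was 95 bp (interquartile range 34 to 168). The endogenous summit lay at the higher coordinate in 236 of 461 pairs, 51.2% (46.5 to 55.8), so neither side was favoured beyond counting error.

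**Figure D1:**
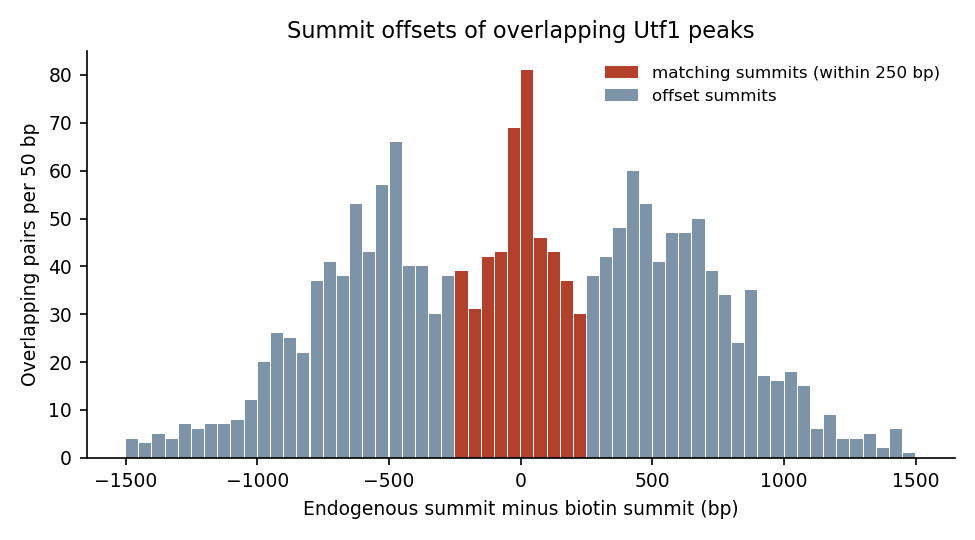
Number of overlapping autosomal pairs per 50 bp (y axis) by endogenous summit minus biotin summit in bp (x axis), with matching pairs in red and offset pairs in blue; 62 offset pairs lie beyond 1500 bp and are not drawn. The central bins hold 69 and 81 pairs, and separate accumulations of offset pairs stand near 500 bp on both sides.

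Some summits were nearly identical. They lay within 5 bp in 32 pairs, within 10 bp in 52 and within 25 bp in 90, and 13 pairs were exactly 1 bp apart. The only pair at 0 bp was on chromosome 11, where the biotin peak at 42592281 to 42593442 and the endogenous peak at 42592711 to 42593308 shared the summit 42592895. It had 89 tags in the biotin list and 13 (6.92 to 22.2) in the endogenous list, the smallest count that list holds. The next, each 1 bp apart and ordered by biotin fold, began with 81 biotin and 16 endogenous tags on chromosome 12 (106674069 to 106674881). A pair on chromosome 11 (55930068 to 55931483) had 106 biotin and 16 endogenous tags. It was followed by a pair on chromosome 15 (38805923 to 38807430) with 109 biotin and 21 endogenous tags, and by a pair on chromosome 1 (63882060 to 63883413) with 125 and 16 tags. Near identity of summits thus occurred also where the endogenous peak was at or close to the smallest tag count of its list.

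Pairs just inside and just outside the limit had overlapping ranges of tags. The farthest matching pair, 249 bp apart on chromosome 11 at 26326108 to 26327844, had 219 biotin and 17 endogenous tags. The next were 245 bp apart, on chromosome 1 at 142806005 to 142807224 with 83 biotin and 13 endogenous tags and on chromosome 9 at 119776880 to 119777689 with 33 and 21 tags. Just outside, 3 pairs were 252 bp apart, with biotin peaks at 194896240 to 194897670 on chromosome 1, 77037368 to 77038540 on chromosome 3 and 6697338 to 6698456 on chromosome 11. In that order they had 140, 126 and 61 biotin tags and 15, 13 and 13 endogenous tags.

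The closer the summits, the more often the endogenous peak was one of higher enrichment. An endogenous fold of 2 or more was listed for 24 of 52 pairs with summits within 10 bp, 46.2% (32.2 to 60.5). For summits 11 to 50 bp apart the share was 31.6% (22.6 to 41.8), and for 51 to 100 bp it was 20.2% (12.4 to 30.1). For summits 101 to 250 bp apart it was 6.76% (3.83 to 10.9). Offset pairs stood at 7.49% (6.15 to 9.02) and all autosomal endogenous peaks at 10.1% (9.49 to 10.7). Pairs over 100 bp apart had a share close to that of offset pairs, and the intervals of the 3 closer classes lay above both.

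Tag number moved with this gradient, since 21 or more endogenous tags were listed for 42.3% of the pairs within 10 bp and for 10.4% of those at 101 to 250 bp. Among endogenous peaks of up to 15 tags, a fold of 2 or more was listed for 4 of 18 pairs within 10 bp, 9 of 57 at 11 to 50 bp, 7 of 61 at 51 to 100 bp and 5 of 158 at 101 to 250 bp. In offset pairs of up to 15 tags it was 34 of 908. Leaving out peaks of over 100 tags gave 45.8% within 10 bp and 6.88% at 101 to 250 bp. The biotin fold had no such gradient: 5 or more was listed for 51.9, 27.6, 39.3 and 48.6% of the pairs in the same 4 distance classes.

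Read from the other side, overlapping pairs matched most often in the highest class of endogenous fold. The single highest endogenous fold of an overlapping pair, 4.23, was nevertheless that of an offset pair. Of 43 overlapping pairs with an endogenous fold of 2.5 or more, 32 matched, which is 74.4% (58.8 to 86.5). Of these 43 pairs, 36 lay in 1 Mb windows with over 40 biotin peaks, and 26 of the 36 matched. In windows with up to 40 biotin peaks, 6 of 7 matched. Over windows of all densities, the share was 38.1% (30.2 to 46.5) from 2 to under 2.5 and 24.2% from 1.5 to under 2. From 1 to under 1.5 it was 21.1% (18.2 to 24.3). Below a fold of 1 it was 24.6% (14.1 to 37.8), or 14 of 57 pairs, and the intervals of the 3 classes under a fold of 2 overlapped. Of the 282 autosomal endogenous peaks whose fold reached 2.5, 11.3% (7.89 to 15.6) were in a matching pair, against 4.80% (4.38 to 5.24) of the whole autosomal list. Most endogenous peaks at this fold therefore had no matching biotin peak, while most of those that overlapped a biotin peak had a summit close to its own.

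There were 10 matching pairs with an endogenous fold of 3 or more, a threshold chosen after the values were seen, and in 9 of them the summits were within 100 bp. Of all 461 matching pairs, 239 had summits within 100 bp. Endogenous folds reached 4.23 in offset pairs and 4.96 over the autosomal list. The highest fold among matching pairs, 3.73, belonged to chromosome 19, 61000083 to 61001300, with 105 biotin and 51 endogenous tags and summits 1 bp apart. The exception in distance, on chromosome 9 at 77500397 to 77501207, had an endogenous fold of 3.7 and summits 198 bp apart. That pair also had fewer biotin than endogenous tags, 30 against 40.

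Matching pairs were as wide as their lists in general, whereas offset pairs involved wider biotin peaks. The biotin peak had a median width of 1084 bp (1036 to 1145) in matching pairs and 1242.5 bp (1217 to 1279) in offset pairs, and the autosomal biotin median was 1086 bp. The endogenous peak had a median of 599 bp (596 to 612) in matching pairs, 600 bp in offset pairs and 597 bp over the autosomal list. Width limits how far apart the summits of overlapping peaks can be, so narrow pairs match more easily. The biotin peak was up to 957.5 bp wide in 456 overlapping pairs, of which 37.1% (32.6 to 41.7) matched. Of the 456 with a biotin peak over 1568.5 bp wide, 15.8% (12.6 to 19.5) matched.

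In most matching pairs the endogenous peak lay within the biotin peak. It was wholly inside in 305 of 461 pairs, 66.2% (61.6 to 70.5), against 18.9% (16.9 to 21.1) of offset pairs, as the rule favours. The biotin summit fell inside the endogenous peak in 435 matching pairs, 94.4%. Midpoints, which the rule did not use directly, were within 250 bp in 73.3% of matching pairs, and the median midpoint distance was 143.5 bp. Endogenous summits stood off the middle of their own peaks by a median of 88 bp in matching pairs, 90.5 bp in offset pairs and 90 bp over the autosomal list. The median distance between matching summits, 95 bp, is bounded by the 250 bp limit, so nothing can be drawn from setting it beside these values.

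Matching pairs had fewer biotin tags than offset pairs and the same median of endogenous tags. The biotin median was 61 tags (55 to 69) in matching pairs and 89 (82 to 98) in offset pairs, against 53 over all autosomal biotin peaks. Biotin tags went with biotin width, with a Spearman's rho of 0.85 in matching pairs. Narrow pairs match more easily, so the rule itself favours fewer biotin tags. Per kb of peak, the medians were 54.1 in matching pairs, 68.8 in offset pairs and 46.9 over the list. The endogenous median was 14 tags in matching pairs, in offset pairs and over the list. Exactly 13 endogenous tags were listed for 155 matching pairs, 33.6% (29.3 to 38.1), for 37.7% of offset pairs and for 3944 of 9612 autosomal endogenous peaks, 41.0%. Up to 15 were listed for 63.8% of matching pairs, 66.7% of offset pairs and 71.0% of autosomal endogenous peaks. Most matching sites therefore rest on an endogenous peak of few tags, as does most of that list.

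Biotin folds, like biotin tags, were lower in matching than in offset pairs, while endogenous folds had nearly equal medians. The biotin median was 4.41 (4.13 to 4.71) in matching pairs, 5.86 (5.52 to 6.10) in offset pairs and 4.14 over the autosomal list. Within matching pairs it was 3.62 for biotin peaks up to 957.5 bp wide and 6.245 for those over 1568.5 bp. The rule favours narrow peaks, so it may favour lower biotin folds too. The endogenous median was 1.57 in matching pairs, 1.54 in offset pairs and 1.57 over the list, but the upper part differed, since 19.1% (15.6 to 23.0) of matching pairs had an endogenous fold of 2 or more. The lists do not say which background each fold was taken over, so the scales of their folds may differ. Across the 461 matching pairs, Spearman's rho between the biotin and the endogenous fold was −0.06, and between their tags 0.22, or 0.13 over the 446 pairs of up to 100 endogenous tags. Pairs share the same 2 libraries and are not independent replicates.

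Of the 8 strongest sites in both lists together, by the sum of the ranks of their folds, 4 were on chromosome 6, among them the first. Chromosome 6 also held the most matching pairs of any autosome, 42 of 461 or 9.11%, and an excess among so few sites was not tested. At 136950953 to 136952131 the biotin peak had 220 tags and a fold of 11.71, and the endogenous peak 60 tags and a fold of 3.55, with summits 10 bp apart. At 87406488 to 87408614 on the same chromosome there were 256 biotin and 46 endogenous tags, with folds of 10.37 and 2.58 and summits 144 bp apart. At 114290595 to 114292783 there were 159 biotin and 27 endogenous tags, and at 116191778 to 116192599 there were 92 and 18.

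The other 4 lay elsewhere. The pairs on chromosome 11 at 55930068 and chromosome 15 at 38805923, already named for summits 1 bp apart, had biotin folds of 8.96 and 8.1 and endogenous folds of 2.54 and 3.13. On chromosome 19, 9827931 to 9829427 had 183 biotin and 19 endogenous tags. On chromosome 3, 146887386 to 146888604 had 127 biotin and 44 endogenous tags, with summits 3 bp apart. In 7 of the 8 the endogenous peak lay wholly inside the biotin peak, and this last pair was the exception.

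A small class of matching sites had very many tags in both lists. Over 100 endogenous tags were listed for 15 matching pairs, and 5 of these were on chromosome 17. That chromosome held 19 of all 461 matching pairs, or 4.12%, and an excess among so few sites was not tested. Of the overlapping pairs with so many endogenous tags, 15 of 27 matched, 55.6% (35.3 to 74.5), against 23.2 to 30.0% in the classes of fewer tags. The autosomal list held 150 endogenous peaks with so many tags, and 15 of the 150 were in a matching pair (5.71 to 16.0%). Most of them therefore had no matching biotin peak. The biotin fold of the 15 matching pairs had a median of 3.37 and ran from 1.47 to 5.62. Their endogenous fold had a median of 1.51, close to that of all matching pairs, and ran from 0.82 to 2.39. It was 2 or more in 4 of the 15, or 26.7% (7.79 to 55.1). Their endogenous peaks were wide, with a median of 1796 bp, while those of the 12 offset pairs of this class had a median of 3878.5 bp.

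The most extreme was on chromosome 17 at 39979342 to 39985969, with 10420 biotin and 4648 endogenous tags and folds of 1.47 and 0.82. It was followed by 13742971 to 13746681 on the same chromosome, with 3271 biotin and 1395 endogenous tags, and by chromosome 4 at 118219068 to 118221815, with 1887 and 572. On chromosome 6, 29697247 to 29699668 had 1071 biotin and 401 endogenous tags. These 4 sites had more biotin than endogenous tags, like most pairs.

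In contrast, on chromosome 2 at 98503597 to 98504582 the biotin peak had 661 tags and the endogenous peak 1333. On chromosome 6 at 103598846 to 103599478 they had 369 and 410 tags, with summits 3 bp apart. With the pair on chromosome 9 named above, these were the 3 matching pairs with more endogenous than biotin tags. In each of them the endogenous peak was also the wider one. The widths were 2136 against 986 bp on chromosome 2, 804 against 633 bp on chromosome 6 and 1127 against 811 bp on chromosome 9. The tag counts are not scaled for width. The ratio of biotin to endogenous tags in the 15 pairs had a median of 2.34 and ran from 0.496 to 3.35. In the 446 matching pairs of up to 100 endogenous tags it had a median of 3.69 and reached 29.9. Endogenous tags both split these groups and divide the ratio, so the split itself favours a lower ratio in the 15 pairs.

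**Figure D2:**
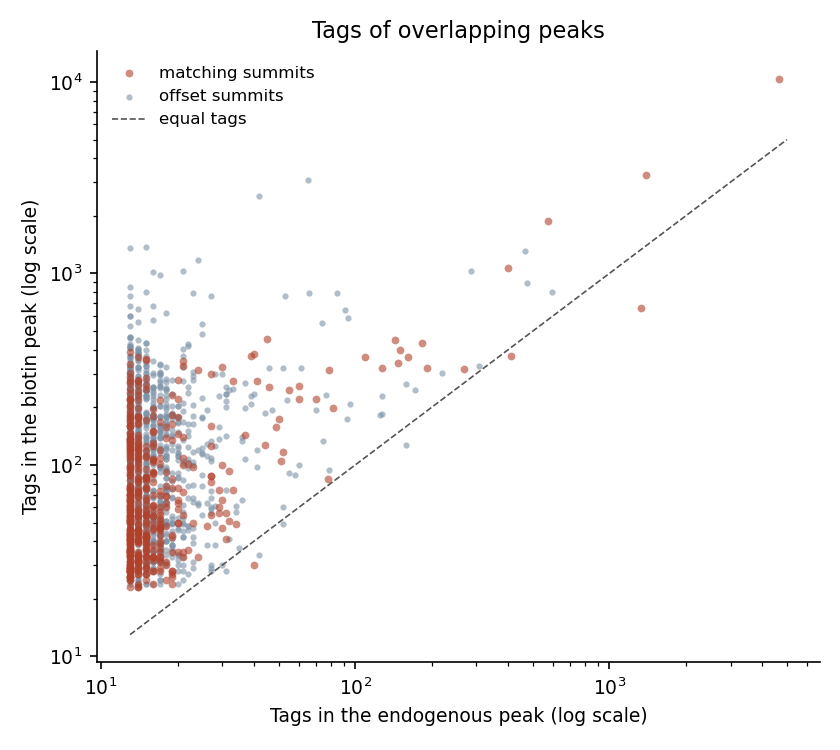
Tags in the biotin peak (y axis, log scale) against tags in the endogenous peak (x axis, log scale) for each overlapping autosomal pair, matching pairs in red and offset pairs in blue, with equal tags as a dashed line. Most matching pairs stand at 13 to 17 endogenous tags over a wide range of biotin tags, and a few reach far to the right near the dashed line.

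Matching sites lay in regions of widely varying peak density. By the median these were more crowded with biotin peaks than offset sites and far less crowded than the typical biotin peak. Density was counted as summits in fixed windows of 1 Mb, the member's own peak included. The window of a matching pair held a median of 41 biotin peaks (35 to 50), that of an offset pair 26 (24 to 29) and that of any autosomal endogenous peak 25. The window of any autosomal biotin peak held a median of 114. The interquartile range was 18 to 101 for matching pairs, 15 to 67 for offset pairs and 61 to 178 for autosomal biotin peaks. Over 40 biotin peaks were present around 50.3% (45.7 to 55.0) of matching pairs, 36.6% (34.0 to 39.2) of offset pairs, 34.1% of autosomal endogenous peaks and 83.8% of autosomal biotin peaks. Endogenous peaks numbered a median of 5 per window for matching and for offset pairs.

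The share of overlapping pairs that matched differed with this density. It was 18.8% (13.4 to 25.2) with 1 to 10 biotin peaks per window, 19.4% with 11 to 20, 23.4% with 21 to 40 and 27.5% with 41 to 80. It reached 37.9% (32.1 to 44.0) with 81 to 150, and was 29.4% (22.8 to 36.7) above 150. The overlapping pairs were also split evenly into 4 classes of biotin width, and in each class the share was higher in windows with over 40 biotin peaks. In the narrowest class it was 47.5% (40.1 to 55.1) in windows with over 40 and 30.2% (24.8 to 36.0) in those with up to 40. In the widest class it was 18.6% (13.6 to 24.5) and 13.4% (9.42 to 18.3), where the intervals overlap.

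**Figure D3:**
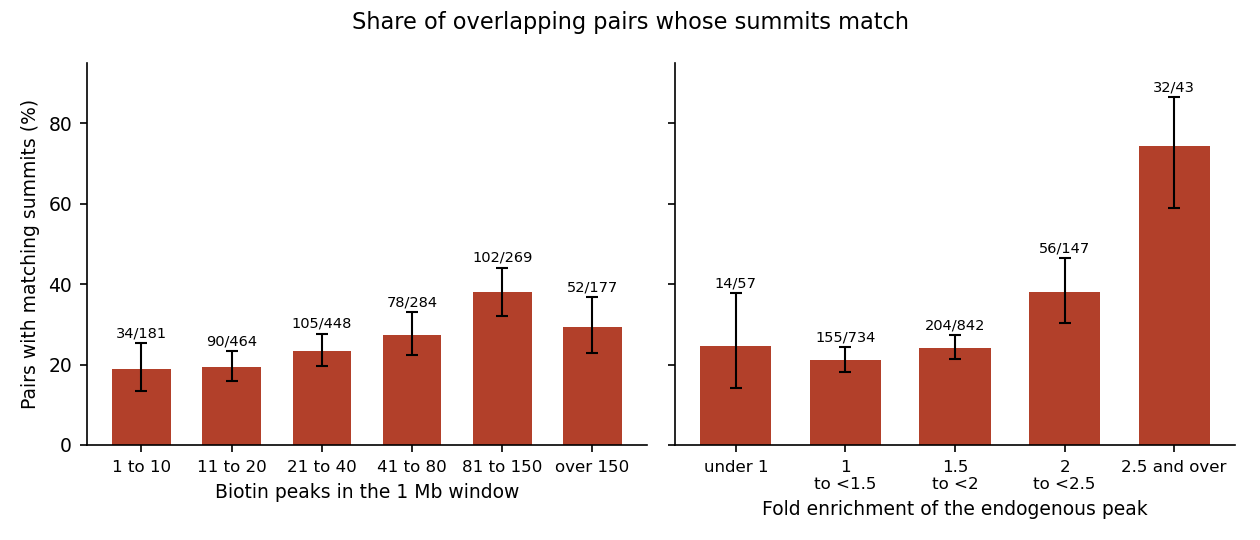
Percent of overlapping autosomal pairs whose summits match (y axis), by number of biotin peaks in the 1 Mb window (left) and by fold enrichment of the endogenous peak (right); bars give the share, error bars the 95% Clopper-Pearson interval, and the numbers matching over overlapping pairs. The share is highest at 81 to 150 biotin peaks per window and at an endogenous fold of 2.5 and over.

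The pile of summits close to 0 was higher in the crowded windows, although they held fewer overlapping pairs. In windows with over 40 biotin peaks, 91 pairs had summits within 50 bp, and 26 to 47 pairs fell in each later 50 bp step up to 250 bp. In windows with up to 40, there were 59 pairs within 50 bp and 37 to 48 in each later step up to 250 bp, and the count then went up to 84 at 451 to 500 bp. Of the matching pairs, 39.2% (32.9 to 45.8) had summits within 50 bp in the crowded windows and 25.8% (20.2 to 31.9) in the sparser ones.

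**Figure D4:**
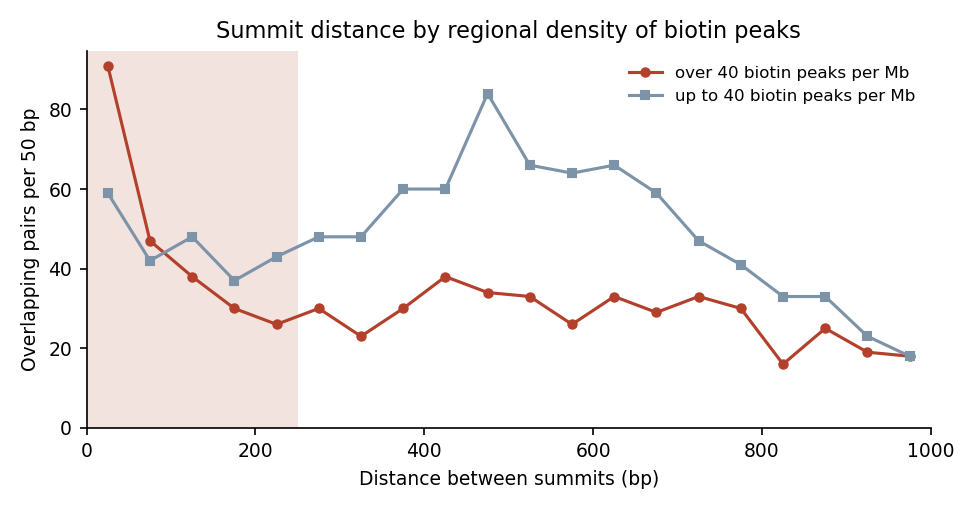
Overlapping autosomal pairs per 50 bp (y axis) by distance between summits in bp (x axis), for windows with over 40 biotin peaks (red circles) and up to 40 (blue squares); the shaded range holds the matching pairs. The crowded windows have their maximum of 91 pairs at 0 to 50 bp, and the sparser windows their maximum of 84 at 451 to 500 bp.

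The peaks themselves differed between these surroundings. In the 232 crowded matching pairs the biotin fold had a median of 3.96 and the endogenous fold 1.76 (1.62 to 1.76). In the 229 sparser ones the biotin fold was 5.17 and the endogenous fold 1.54 (1.45 to 1.57). An endogenous fold of 2 or more was listed for 28.0% (22.3 to 34.3) of the crowded matching pairs and for 23 of the 229 sparser ones (6.47 to 14.7%). Offset pairs stood at 10.6% (8.07 to 13.7) and 5.67% (4.22 to 7.43) in the same order, and all autosomal endogenous peaks at 13.9% and 8.12%. The gradient with summit distance was present on both sides of the split. In crowded windows the share ran from 56.2% of 32 pairs within 10 bp to 12.8% of 94 pairs at 101 to 250 bp, and in sparser windows from 30.0% of 20 pairs to 2.34% of 128 pairs.

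Matching pairs at the ends of the density range were named by biotin peaks per window, with ties settled by the higher biotin fold. The matching pair in the emptiest window, with 5 biotin peaks, was on chromosome 11 at 39856517 to 39857376, with 34 biotin and 13 endogenous tags. Next came windows with 6 biotin peaks, on chromosome 6 at 104014246 to 104015916 with 288 biotin and 13 endogenous tags, and on chromosome 1 at 118258755 to 118260638 with 219 and 14. The most crowded window, with 319 biotin peaks, held chromosome 8 at 123040936 to 123043863, with 355 biotin and 15 endogenous tags. It was followed by 2 sites on chromosome 4 in a window with 255 biotin peaks, at 141995062 to 141997804 and at 141306117 to 141308546, with 176 and 163 biotin tags and 14 and 19 endogenous tags.

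At short range, too, matching sites stood apart from other biotin peaks more than is usual in that list. The nearest other biotin summit was a median of 9.51 kb away (7.74 to 11.4) for matching pairs, 14.1 kb for offset pairs and 3.10 kb for autosomal biotin peaks. Another biotin summit within 5 kb was present for 34.1% of matching pairs, 25.7% of offset pairs and 67.1% of autosomal biotin peaks. They also had close endogenous neighbours less often than offset pairs did. Another endogenous summit within 5 kb was present for 13.2% (10.3 to 16.7) of matching pairs, 21.8% (19.6 to 24.1) of offset pairs and 16.8% of autosomal endogenous peaks.

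Matching sites were scattered and did not form long clusters. They occupied 400 of 2241 autosomal windows of 1 Mb that held peaks of both lists. A single matching pair was present in 346 windows, 2 pairs in 47 and 3 pairs in 7, the largest number in any window. Neighbouring matching pairs on a chromosome were a median of 3009 kb apart, and 19 of 442 gaps were under 100 kb. Of the windows with 3 pairs, the one with fewest biotin peaks was on chromosome 3, 7000001 to 8000000, with 24 biotin and 13 endogenous peaks. On the same chromosome, 148000001 to 149000000 held 3 matching pairs among 4 endogenous peaks, at 148372703, 148413813 and 148461040. The others among the first 5 were 7000001 to 8000000 on chromosome 10, 118000001 to 119000000 on chromosome 14 and 4000001 to 5000000 on chromosome 16. Of these 5 windows, the one on chromosome 16 alone also held offset pairs, 2 in number.

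Across the autosomes the number of matching pairs ran from 8 on chromosome 19 to 42 on chromosome 6. As a share of the endogenous peaks of a chromosome it was highest on chromosome 16, 34 of 416 or 8.17% (5.73 to 11.2), and lowest on chromosome 13, 14 of 491 or 2.85% (1.57 to 4.74). The interval of 17 of the 19 autosomes held the overall share of 4.80%. Chromosome 16 lay above it and chromosome 13 below, with no adjustment for looking at 19 chromosomes. As a share of the biotin peaks it ran from 0.170% on chromosome 11 to 0.710% on chromosome 16.

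**Figure D5:**
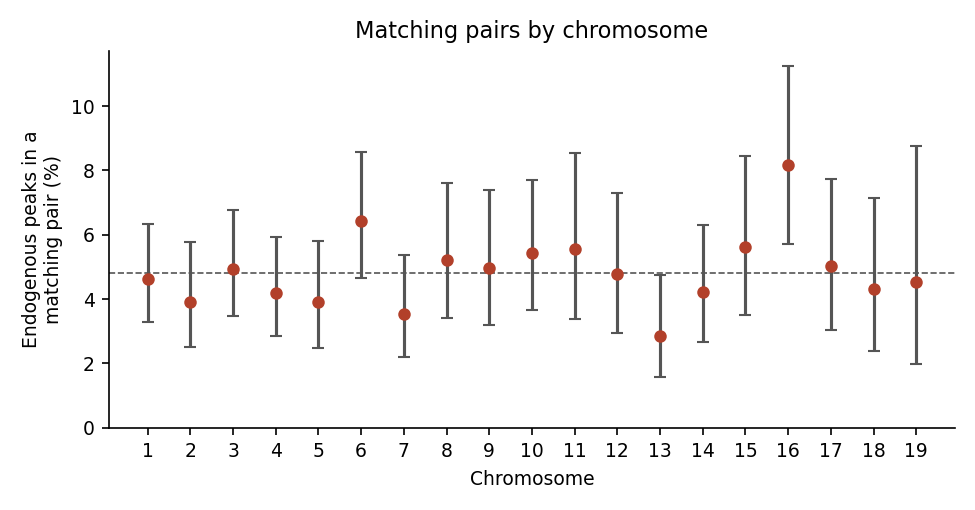
Percent of the endogenous peaks of each autosome that are in a matching pair (y axis) by chromosome (x axis); points give the share, error bars the 95% Clopper-Pearson interval, and the dashed line the share of 4.80% over all autosomes. Chromosome 16 stands above the line and chromosome 13 below it with their whole intervals.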

How the data were processed

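Peaks were listed by the authors separately for each of the 2 precipitations, with 1 library per group. Per the submitters' processing notes, the build was mm9, and BWA 0.5.7 and R 2.15.2 were used in roles not stated. No source used here names the peak caller, its settings or its control. Per the file headers, the deposited lists give tags as counts not scaled for depth, fold enrichment as a linear ratio, a false discovery rate in percent, 10 times the −log10 of a p-value, width and summit. Each is the authors' own value for a peak.

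Overlaps, summit distances (summit position is start plus summit minus 1) and peaks per 1 Mb window were computed with Python 3.11.15, numpy 2.4.6, pandas 2.3.3 and scipy 1.17.1, and drawn with matplotlib 3.10.9. The pairing was tested on simulated lists with known pairs, and the 1823 overlapping pairs were checked with bedtools 2.31.1. Named regions are the 8 pairs with the smallest sum of fold ranks, the 3 nearest each side of the 250 bp limit, the 5 closest summits, the 5 windows with most pairs, the 5 pairs with most tags in each list, and the 3 in the emptiest and most crowded windows. The members, lists and settings were chosen with earlier results of these data known. No group was compared by a test, because each has 1 library. Alternatives were other summit limits, overlap criteria, subsets of peaks and windows.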

Additional observations from a re-analysis of the deposited data

How the results depend on the processing

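Of 102 alternative values for 11 results under 10 settings, 75 stayed within the interval of the reported value, or within 1.5 times the count, and 27 moved. Some of the 75 could not have moved. Shifting every summit by 1 bp in both lists leaves all distances as they are, and no value changed. Keeping 1 pair per peak left the same 461 pairs, and only the share of overlapping pairs that matched changed, to 26.3%. The tally is therefore not a count of independent checks. Counting pairs by midpoints, the 2 results on endogenous fold and all settings for those were chosen after seeing the data. With summits within 100 bp there were 239 pairs (13.1% of overlapping pairs), with 52 biotin peaks in the median window, 57.7% of pairs in windows with over 40 biotin peaks and a median endogenous fold of 1.73. With summits within 500 bp there were 916 pairs (50.2%), 31 biotin peaks and 42.2%. An overlap of 50% of the shorter peak removed offset pairs and gave a share of 37.8%. Without endogenous peaks of up to 15 tags, 167 pairs were left, with medians of 76 biotin and 19 endogenous tags, an endogenous width of 749 bp and fold of 1.76, 59 biotin and 2 endogenous peaks per window, and 61.1% in windows with over 40. For the stronger 50% of each list, 128 pairs were left, with medians of 85.5 and 15.5 tags, widths of 1178 and 630.5 bp, an endogenous fold of 1.81, 24 biotin and 3 endogenous peaks per window, and 33.6% in windows with over 40. Removing peaks lowers the density of the list they are taken from by construction, which holds for endogenous density in both settings and for biotin density in the last. Biotin density was higher in the first, which leaves the biotin list whole, and the cause was not tested. The share of pairs with an endogenous fold of 2.5 or more that matched ran from 60.5 to 82.1% over its settings. No paired analysis was possible because each group has 1 library, and for the same reason no replicate could be left out. Unknown depth and endogenous peaks close to 13 tags limit every value here.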

Other observations

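The same summit criterion can be applied outside chromosomes 1 to 19, which the description of the members leaves out. On chromosome X, 22 of 134 overlapping pairs had summits within 250 bp, 16.4% (10.6 to 23.8), against 25.3% (23.3 to 27.3) on the autosomes. These 22 pairs had medians of 75 biotin and 14 endogenous tags and folds of 5.62 and 1.57. On unplaced sequence, 10 of 37 overlapping pairs matched, with up to 425 endogenous tags, and on chromosome Y 2 of 5. The intervals of X and the autosomes overlap narrowly, and the difference was not tested.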
